A study of Rattus norvegicus with 23 samples.

Results

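Arginine tRNA reads were followed in mature sperm of rats that had breathed ozone or filtered air. Of the 273 rows of the deposited tRNA table, 24 carried a name that starts with tRNA-Arg-, and these are the rows described. They covered 5 anticodons, with 3 rows for ACG, 3 for CCG, 7 for CCT, 5 for TCG and 6 for TCT. The 3 tRX-Arg rows of the same table, whose prefix sets them apart from the tRNA- rows, were left out. The remaining rows were 215 tRNA rows of other isotypes and 34 tRX rows, the 3 tRX-Arg rows among them.

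The animals were male Long-Evans rats, and small RNA was sequenced from sperm of the cauda epididymis, where sperm are stored. There were 7 libraries from rats kept in filtered air, 8 from rats exposed to 0.4 ppm ozone and 8 from rats exposed to 0.8 ppm ozone, an oxidant gas. Exposures lasted 4 h, with 3 of them in week 1 and 2 in week 2, and the chambers averaged 0.401 and 0.798 ppm. The design text gives a group size of 8, while 7 libraries carry the air label. Replicate numbers below follow the order of the records and pair no rats. Only the small RNA fraction was isolated, and the labels tie each library to 1 rat.

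A tRNA reads a codon of messenger RNA through its anticodon and brings the matching amino acid to the ribosome. Arginine is one of the amino acids with the most codons: tRNA with the anticodon CCT reads AGG, TCT reads AGA, CCG reads CGG and TCG reads CGA, and ACG, once its first base is modified to inosine, reads the other CG codons. Mature sperm make little protein, and their small RNA is known to be rich in fragments cut from tRNA. Whether a read came from a fragment or from a longer molecule was not analysed here. In the naming scheme of the rows, genes that share isotype, anticodon and first number have the same mature sequence, and the last number counts gene copies.

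The values are reads scaled by the authors with a median-ratio factor per library, here called normalised values, and they are not divided by length. In the tRNA table they were whole multiples of 1 step per library, which gave 164342 to 481504 reads per library and 1310 to 7140 arginine reads. Sperm identity was checked in the miRNA table with miR-34b-3p, miR-34c-5p and miR-449a-5p, which are abundant in male germ cells. Together they held 22.8% to 48.0% of that table. The 5 miRNAs of the miR-200 family, which mark epithelium, held 0.680% to 3.21%, the 6 leukocyte miRNAs 1.68% to 6.27%, and the 2 measured erythroid miRNAs 0.00589% to 0.141%. In such bulk RNA, fewer cells of a type and less RNA per cell cannot be told apart.

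Arginine was a modest isotype in sperm. Its rows held 0.915% ± 0.226 of the tRNA table over the 23 libraries (SD), which placed it in position 9 of 21 isotypes. The lowest share was 0.574% in replicate 7 at 0.8 ppm (95% Wilson interval 0.547% to 0.601%), and the highest was 1.48% in replicate 4 at 0.8 ppm (1.45% to 1.52%). The intervals cover counting error only. All 24 rows were above 0 in every library, as were all 273 rows of the table. Of the 55 anticodon sums of the table, CCG stood at position 23, CCT at 28, TCT at 29, TCG at 32 and ACG at 41.

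Within the arginine signal, CCG rows held 30.3% ± 2.17 over the 23 libraries (SD), CCT rows 23.7% ± 6.83, TCT rows 22.1% ± 5.42, TCG rows 19.6% ± 2.10 and ACG rows 4.36% ± 1.08. CCG exceeded CCT in 20 of 23 libraries, and TCG exceeded ACG in 23 of 23. The middle of the order was not settled: CCT exceeded TCT in 12 of 23 libraries and TCT exceeded TCG in 16 of 23. TCT exceeded CCG in replicate 1 of air (837 against 800 in normalised value) and replicate 8 at 0.4 ppm (1215 against 1025). The same held in replicate 6 at 0.8 ppm (877 against 782). CCG, which decodes CGG, was still the leading arginine signal in most rats, while ACG stayed the smallest in all of them.

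Each anticodon was led by few rows. Arg-CCG-3-1 had the highest mean normalised value, 531 over the 23 libraries, and alone held 17.3% ± 1.85 of the arginine signal (SD). Arg-TCG-1-1 averaged 378, Arg-TCT-3-1 averaged 294, Arg-CCG-2-1 averaged 277, Arg-CCT-3-1 averaged 251 and Arg-CCT-4-1 averaged 220. The leading ACG row, Arg-ACG-3-2, averaged 89.7. At the low end, Arg-TCT-5-1 averaged 15.1, Arg-ACG-2-1 averaged 14.3 and Arg-TCT-2-1 averaged 12.4. These rows rested on few reads, with a median of 16, 18 and 13 reads per library, while Arg-CCG-3-1 had a median of 518. The plot of all 24 rows shows this order with the 3 exposures overlapping in each row.

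**Figure D1:**
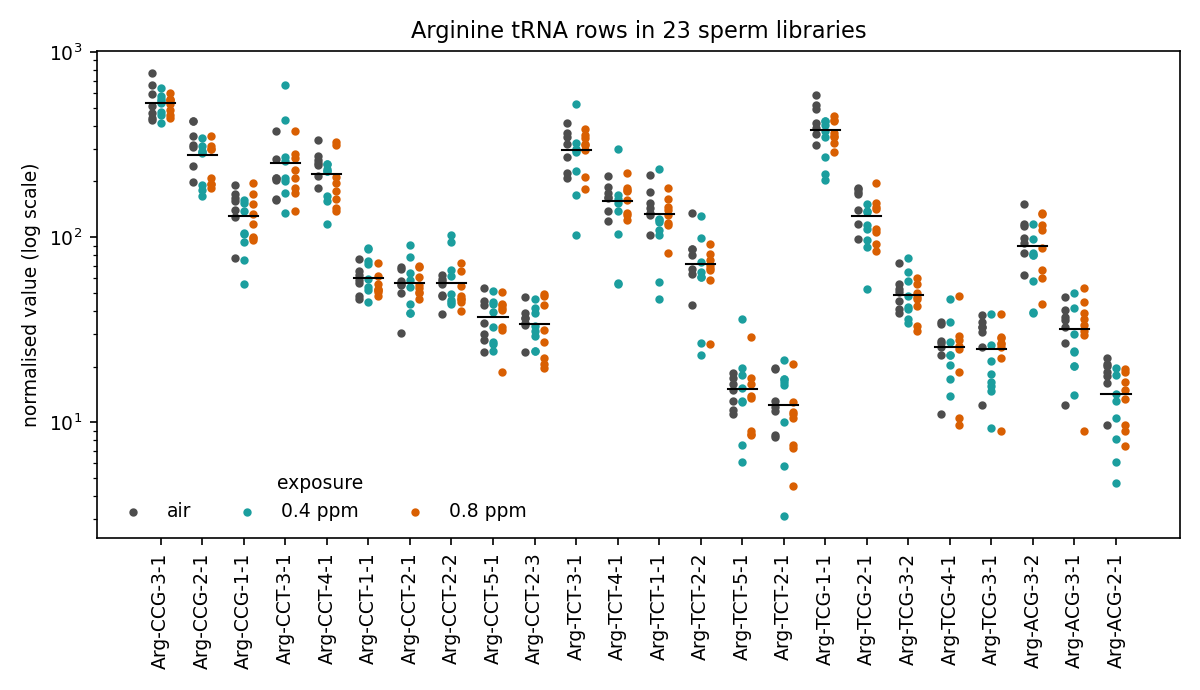
Normalised values (log scale) of the 24 arginine tRNA rows in 7 air, 8 0.4 ppm and 8 0.8 ppm libraries, ordered by anticodon and mean. Each point is 1 rat and each bar the mean over 23 libraries; means run from 12.4 for Arg-TCT-2-1 to 531 for Arg-CCG-3-1, and the exposures overlap in every row.

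Rows whose names mark the same mature sequence did not carry equal values. Arg-TCT-2-2 averaged 71.2 and Arg-TCT-2-1 averaged 12.4, a ratio of 5.73. Arg-ACG-3-2 averaged 2.82 times Arg-ACG-3-1, and Arg-TCG-3-2 averaged 1.96 times Arg-TCG-3-1. Arg-CCT-2-1 and Arg-CCT-2-2 had nearly the same mean, 56.8 and 56.3, while Arg-CCT-2-3 had 34.0. The log2 ratio of Arg-CCT-2-2 to Arg-CCT-2-1 varied between libraries with an SD of 0.25, where read counting alone gives 0.28. The ratio of Arg-TCT-2-2 to Arg-TCT-2-1 varied with an SD of 0.74, where counting gives 0.54. The sources used here do not give how a read was shared among identical gene copies, so single copies of such a family are uncertain.

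A pair of rows with different anticodons ran almost level. Arg-CCG-1-1 averaged 129.3 and Arg-TCG-2-1 averaged 129.9, and their ratio stayed between 0.785 and 1.18 in the 23 libraries. The SD of their log2 ratio, 0.15, was the smallest among the 210 pairs of arginine rows with a mean of at least 20, and it was below the 0.19 that counting gives; the median pair had 0.53. The files hold no sequence of these rows, so shared reads between them were not tested. Among the leading rows, Arg-TCG-1-1 was most like Arg-TCG-2-1 (SD of the log2 ratio 0.23), Arg-TCT-3-1 was most like Arg-TCT-1-1 (0.25), Arg-CCG-3-1 was most like Arg-TCG-1-1 (0.30), Arg-ACG-3-2 was most like Arg-CCG-1-1 (0.33) and Arg-CCT-3-1 was most like Arg-CCT-2-2 (0.35). Outside arginine, the rows most like them were Leu-CAA-1-1 for Arg-TCG-1-1 (0.29), Asn-GTT-2-1 for Arg-TCT-3-1 (0.26), Leu-AAG-1-2 for Arg-CCG-3-1 (0.27), Trp-CCA-3-1 for Arg-ACG-3-2 (0.31) and His-GTG-1-4 for Arg-CCT-3-1 (0.38).

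The study asked whether ozone alters the noncoding RNA of sperm, and for arginine tRNA no anticodon passed the test. Each anticodon sum was compared on the log2(value + 1) scale with limma, a linear model that pools the spread over features, and p-values were adjusted by Benjamini-Hochberg over all 55 anticodon sums at a threshold of 0.05. Of the 5 arginine sums, 0 were called at 0.4 ppm or at 0.8 ppm against air, as were 0% of all 55 sums in both comparisons. At an unadjusted p under 0.05, 1 of 5 arginine sums and 2 of 55 in all (3.64%) stood out at 0.4 ppm, and none of the 55 did at 0.8 ppm.

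TCG, the anticodon for CGA, came nearest. Its sum ran from 473 through a median of 691 to 879 in air, from 344 through 560 to 702 at 0.4 ppm and from 471 through 567 to 769 at 0.8 ppm. The 3 groups overlapped, with the lowest rats at 0.4 ppm below every air rat. Against air, the log2 difference was -0.37 ± 0.18 at 0.4 ppm (SE, limma adjusted p = 0.648) and -0.21 ± 0.18 at 0.8 ppm (adjusted p = 0.895).

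The smallest group of rows, ACG, averaged 154 ± 38.9 in the 7 air rats, 114 ± 35.3 in the 8 rats at 0.4 ppm and 142 ± 48.6 in the 8 rats at 0.8 ppm (SD). Its log2 difference from air was -0.45 ± 0.23 at 0.4 ppm and -0.16 ± 0.23 at 0.8 ppm (SE, limma adjusted p = 0.648 and 0.895). ACG values overlapped between all 3 groups, and the lowest single value, 61.6, came from a 0.8 ppm rat.

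CCG, the largest arginine signal, averaged 1023 ± 223 in air, 891 ± 145 at 0.4 ppm and 908 ± 149 at 0.8 ppm (SD). Its 95% interval against air ran from -0.52 to 0.15 on the log2 scale at 0.4 ppm and from -0.49 to 0.18 at 0.8 ppm. Both intervals include 0, and CCG groups overlapped.

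The anticodons for AGG and AGA, CCT and TCT, had their widest spread at 0.4 ppm. CCT averaged 717 ± 119 in air, 753 ± 197 at 0.4 ppm and 676 ± 165 at 0.8 ppm (SD). TCT averaged 731 ± 162 in air, 632 ± 289 at 0.4 ppm and 691 ± 134 at 0.8 ppm. At 0.4 ppm the TCT sum spanned 254 to 1215, wider than the 527 to 1012 of the air rats on both sides. The log2 differences at 0.4 ppm against air were 0.05 ± 0.18 for CCT and -0.32 ± 0.23 for TCT (SE), and at 0.8 ppm they were -0.10 ± 0.18 and -0.08 ± 0.23; the limma adjusted p-values lay between 0.648 and 0.922.

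**Figure D2:**
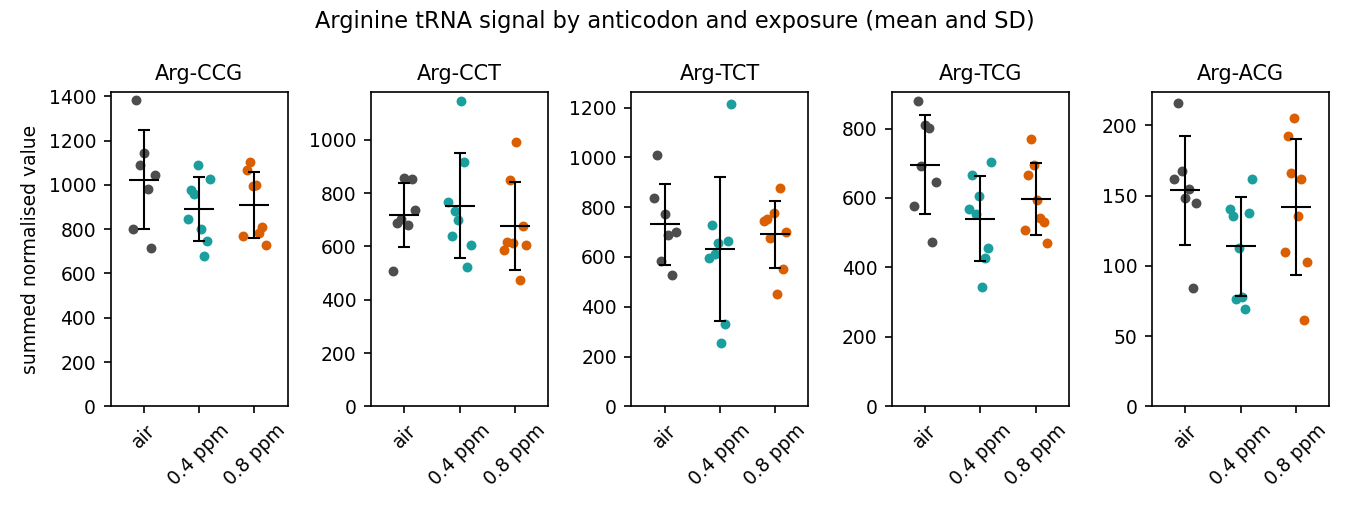
Summed normalised value of the arginine rows of each anticodon by exposure, with 1 point per rat and the mean and SD of 7 air, 8 0.4 ppm and 8 0.8 ppm rats. Groups overlap for every anticodon, and the TCT sum is most spread at 0.4 ppm, from 254 to 1215; the vertical scale differs between panels.

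Row by row the result was the same. With adjustment over all 273 rows, limma called 0 of the 24 arginine rows in each of 4 contrasts (either dose against air, the doses against each other, and a line through dose), as it called 0% of all rows in each. An exact permutation test of each pair of groups called 0 rows as well. At an unadjusted p under 0.05, 4 of 24 arginine rows stood out at 0.4 ppm against air, where 16 of all 273 rows did (5.86%). With scaling to the table total this count was 0 of 24, against 11 of all rows (4.03%), and with library weights 6 of 24, against 31 of all rows (11.4%). At 0.8 ppm against air it was 0 of 24 without weights, against 5 of all rows (1.83%). With library weights it was 4 of 24, against 63 of all 273 rows. For 0.8 ppm against 0.4 ppm it was 0 of 24, against 6 of all rows (2.2%), and with weights 0 of 24, against 36. For the trend it was 0 of 24, against 5 of all rows (1.83%), and with weights 5 of 24, against 62.

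The 4 rows at 0.4 ppm were all lower than in air. Arg-ACG-2-1 ran from 4.69 through a median of 11.8 to 19.7 at 0.4 ppm, against 9.68 through 18.6 to 22.1 in air. Arg-TCG-1-1 ran from 204 through 360 to 424 at 0.4 ppm, against 313 through 412 to 583 in air. Arg-TCG-2-1 ran from 52.2 through 113 to 152 at 0.4 ppm, against 98.2 through 171 to 183 in air. In each of these rows the 0.4 ppm rats reached below the lowest air rat, and the groups overlapped. Their log2 differences were -0.65 ± 0.28, -0.41 ± 0.19 and -0.48 ± 0.22 (SE), with limma adjusted p-values of 0.725, 0.739 and 0.739. The other row was Arg-TCT-1-1, at -0.51 ± 0.24 (adjusted p = 0.739). Without replicate 5 at 0.4 ppm, 1 of the 24 rows had an unadjusted p under 0.05, and over the fits that left out each library in turn this count ran from 1 to 8.

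At 0.8 ppm the smallest p-values belonged to Arg-CCG-2-1, Arg-CCT-4-1 and Arg-ACG-2-1. Arg-CCG-2-1 ran from 184 through a median of 255 to 353 at 0.8 ppm, against 198 through 313 to 423 in air. Arg-CCT-4-1 ran from 139 through 186 to 327 at 0.8 ppm, against 184 through 250 to 335 in air. The ranges overlapped for most of their length, with the middle of the 0.8 ppm rats below that of the air rats. The log2 differences were -0.33 ± 0.21 and -0.32 ± 0.20 (SE), and -0.40 ± 0.28 for Arg-ACG-2-1, each with a limma adjusted p of 0.935. Arg-CCT-4-1 was the single arginine row called under any alternative: with libraries weighted by their scatter its difference at 0.8 ppm was -0.57 ± 0.17 (adjusted p = 0.0394), when 22 of all 273 rows were called (8.06%). Over its 10 alternatives the adjusted p of Arg-CCT-4-1 at 0.8 ppm ran from 0.0394 to 0.999 and the log2 difference from -0.57 to -0.02. With the same weights its trend was -0.72 ± 0.21 on the log2 scale per ppm (SE, adjusted p = 0.0485), when 9 rows were called (3.3%).

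The arginine rows leaned to lower values in ozone. At 0.4 ppm against air, 20 of the 24 rows had a log2 difference below 0, where 52% of all rows did, and the median was -0.24 for arginine rows and -0.01 for all rows. At 0.8 ppm it was again 20 of 24, where 52.4% of all rows were below 0, with medians of -0.16 and -0.02. Both comparisons use the same air libraries. The 24 rows are also not separate signals: their names mark 19 mature sequences, and copies of a sequence may share reads. Leaving out single libraries moved the arginine median at 0.4 ppm between -0.34, without replicate 6 of air, and -0.14, without replicate 5 at 0.4 ppm, with 16 to 20 rows below 0 over these fits. At 0.8 ppm it moved between -0.22, without replicate 3 at 0.8 ppm, and -0.08, without replicate 2 of air, with 18 to 22 rows below 0. The lean at 0.8 ppm depended on the scaling. When values were instead scaled to the total of the table, the median of all rows at 0.8 ppm moved to 0.28 and that of arginine rows to 0.14, with 4 of 24 below 0 (15.4% of all rows). The sign of the arginine median at 0.8 ppm thus turned. At 0.4 ppm the same scaling left 19 of 24 arginine rows below 0 (48% of all rows), with medians of -0.22 for arginine rows and 0.02 for all rows. Scaling multiplies all rows of a library by the same factor, so the gap between the medians could hardly change. That the arginine median lay under the median of all rows in both scalings is therefore no separate test of the lean. Between the doses, 10 of 24 rows were lower at 0.8 ppm than at 0.4 ppm, where 51.6% of all rows were. With scaling to the table total it was 0 of 24, where 20.5% of all rows were, and 4 of 24 had an unadjusted p under 0.05 (6.59% of all rows).

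**Figure D3:**
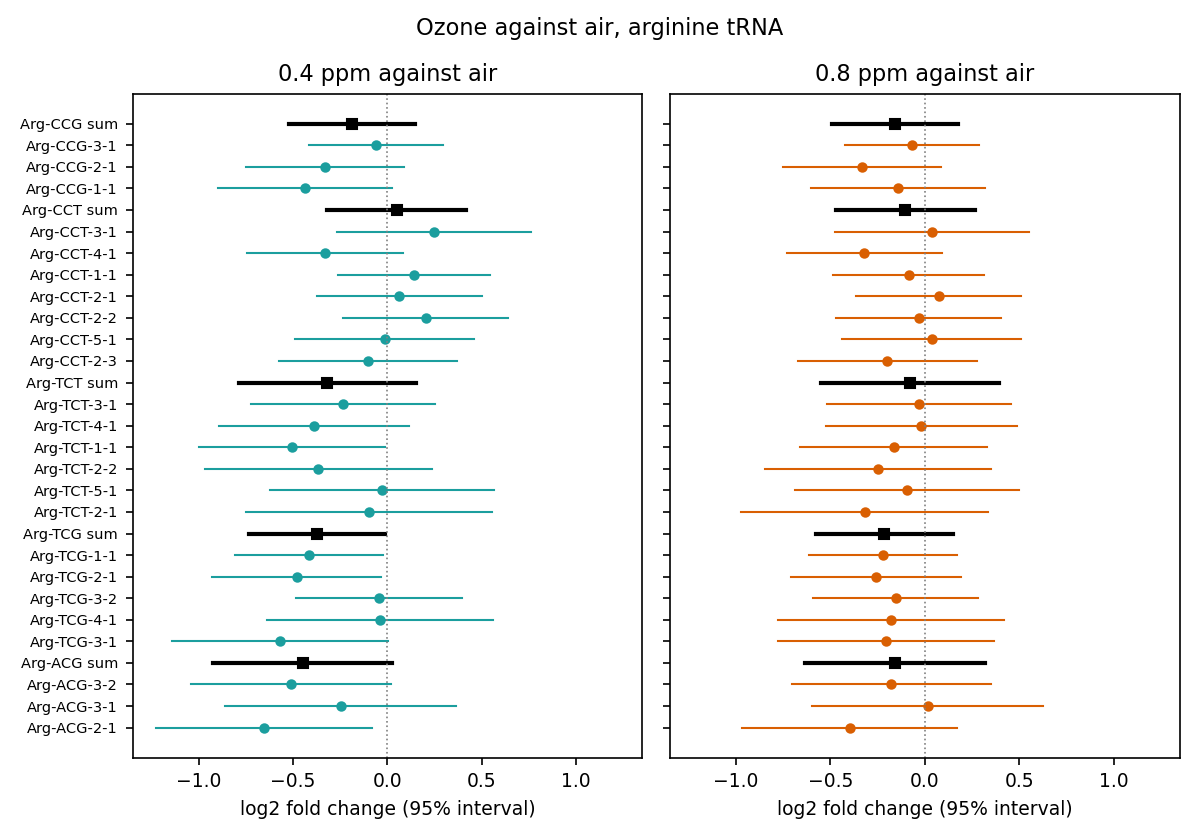
Log2 fold change of each arginine row (circles) and anticodon sum (squares) at 0.4 ppm against air and at 0.8 ppm against air, with 95% intervals from limma on log2(value + 1). At 0.4 ppm 20 of 24 rows lie left of 0 and the intervals of 4 rows and of the TCG sum leave 0 out; at 0.8 ppm 20 of 24 lie left of 0 (4 of 24 when scaled to the table total) and every interval includes it.

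Germ-cell miRNA had a lower mean share in the 0.4 ppm group. The 3 germ-cell miRNAs held 33.6% ± 5.78 (SD) of the miRNA table in the 8 rats at 0.4 ppm, against 40.2% ± 4.95 in the 7 air rats. At 0.8 ppm they held 39.1% ± 8.30. The miR-200 family held 1.77% ± 0.713 at 0.4 ppm and 1.13% ± 0.325 in air, and the leukocyte miRNAs held 3.13% ± 1.58 at 0.4 ppm and 2.77% ± 0.886 in air. With the germ-cell share as a covariate, an alternative added after the data were seen, the median log2 difference of the arginine rows at 0.4 ppm was -0.03, with 15 of 24 below 0 (47.3% of all rows) and 1 of 24 at an unadjusted p under 0.05 (7.33% of all rows). At 0.8 ppm the median with the covariate was -0.11, with 19 of 24 below 0 (51.6% of all rows).

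The share of the tRNA table held by arginine followed no single direction with dose. It ran from 0.623% through a median of 0.849% to 1.25% in air, from 0.590% through 0.796% to 1.03% at 0.4 ppm and from 0.574% through 1.03% to 1.48% at 0.8 ppm. The means were 0.904% ± 0.197, 0.810% ± 0.161 and 1.03% ± 0.271 in that order of dose (SD). The 0.8 ppm group held both the lowest and the highest rat. Across the 23 libraries the share was higher where the germ-cell miRNA share was higher, with Pearson's r of 0.77 and Spearman's rho of 0.81, given as a description. Within groups r was 0.78 in air, 0.52 at 0.4 ppm and 0.89 at 0.8 ppm.

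Differences between rats were larger than read counting gives. The coefficient of variation within groups ranged from 16.4% for Arg-CCG-3-1 to 45.3% for Arg-TCT-5-1, with a median of 30.8% over the 24 rows, beside 33.4% over all 273 rows. For Arg-CCG-3-1 counting gives 4.52%, and for Arg-CCT-3-1, at 43.9%, it gives 6.73%. All 24 rows varied more than counting gives, as did 259 of the 273 rows of the table, though for Arg-ACG-2-1 the margin was small, 35.9% beside 31.1%.

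In the libraries at the extremes, the leading CCT row and 4 of the 6 TCT rows (Arg-TCT-3-1, Arg-TCT-4-1, Arg-TCT-1-1 and Arg-TCT-2-2) stood on opposite sides of their means. Arg-CCT-3-1 ran from 159 through a median of 209 to 373 in air, from 136 through 232 to 662 at 0.4 ppm and from 138 through 220 to 373 at 0.8 ppm. Arg-TCT-3-1 ran from 209 through 319 to 412 in air, from 102 through 291 to 522 at 0.4 ppm and from 181 through 316 to 382 at 0.8 ppm. Replicate 5 at 0.4 ppm had both the highest Arg-CCT-3-1 of all libraries, 662, and the lowest Arg-TCT-3-1, 102. Replicate 8 at 0.4 ppm had the reverse, with 136 for Arg-CCT-3-1 and 522 for Arg-TCT-3-1.

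Other rows shared the split. In replicate 5 at 0.4 ppm, Arg-TCT-4-1 was 56.8, Arg-TCT-1-1 was 46.4 and Arg-TCT-2-2 was 23.2, and in replicate 6 they were 56.0, 57.3 and 26.8. Over all 23 libraries these rows averaged 157, 133 and 71.2, so both rats were far under the mean in each. The 2 TCT rows with the fewest reads each followed in 1 of these rats and not in the other. Arg-TCT-5-1 was 19.7 in replicate 5 and 6.09 in replicate 6, against a mean of 15.1. Arg-TCT-2-1 was 5.80 in replicate 5 and 17.1 in replicate 6, against a mean of 12.4. Arg-CCT-2-2 was 103 and 93.8 in the same rats, against a mean of 56.3, and Arg-CCT-1-1 was 86.9 and 86.5, against a mean of 60.3. The CCT rows were not uniform, however, and 4 of the 7 were above their own mean in each of these rats. As a result the CCT share of the arginine signal reached 43.7% in replicate 5 and 37.8% in replicate 6, while TCT held 9.68% and 13.7%. Leaving these rats aside, the CCT share ran from 16.3% to 32.2%. Most rows of the other anticodons lay on the TCT side, so the split was not one of CCT against TCT alone. In replicate 5 the median log2 deviation was -0.67 for CCG, -0.85 for TCG and -0.65 for ACG, with 1 row of each above its mean. In replicate 6 these medians were -0.49, -0.37 and -1.01, and in replicate 8 they were 0.21, 0.29 and 0.49.

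**Figure D4:**
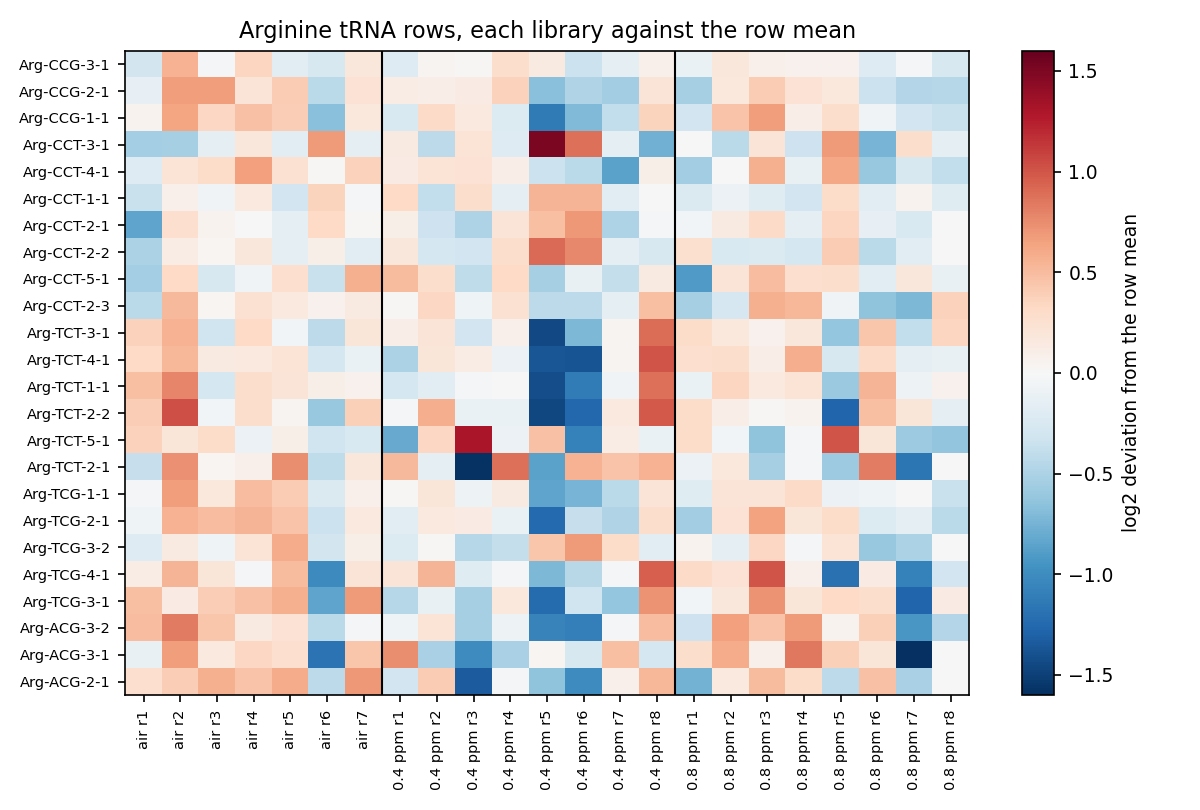
Log2 deviation of each arginine row from its own mean over 23 libraries (colour, red above and blue below the mean), with libraries in columns by exposure (r is the replicate). Replicates 5 and 6 at 0.4 ppm are red for Arg-CCT-3-1 and blue for most TCT, CCG, TCG and ACG rows. Replicate 8 at 0.4 ppm shows the opposite.

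The ratio of Arg-CCT-3-1 to Arg-TCT-3-1, the highest row of each anticodon, puts the split in a single number. This pair was chosen after the values were seen. The ratio ran from 0.389 through a median of 0.754 to 1.79 in air, from 0.259 through 0.788 to 6.49 at 0.4 ppm and from 0.362 through 0.631 to 2.05 at 0.8 ppm. The medians lay close together and the groups overlapped, with the extremes at both ends in the 0.4 ppm group. The SD of the log2 ratio over the 23 libraries was 1.02, where counting gives 0.14.

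The ratio was high in libraries with a low share of germ-cell miRNA. Over the 23 libraries Pearson's r between the log2 ratio and that share was -0.76 (permutation p = 2e-05, adjusted p = 0.0001 over 5 relations) and Spearman's rho was -0.67 (permutation p = 0.00061, adjusted p = 0.003). The adjustment covers the 5 relations and not the choice of this pair after the values were seen. Ratios of other rows, within or outside arginine, were not set against that share. Whether the relation is particular to arginine was therefore not tested. Without the 2 libraries farthest from the median share, r was -0.69. Within groups r was -0.88 in air, -0.96 at 0.4 ppm and -0.66 at 0.8 ppm. The share was 22.8% in replicate 5 and 28.3% in replicate 6 at 0.4 ppm, and 29.6% in replicate 6 of air, whose ratio of 1.79 was the highest of its group. In replicate 7 at 0.8 ppm the share was 23.2% and the ratio 1.33.

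Leukocyte miRNA and depth moved with the ratio as well. For the leukocyte share r was 0.72 (permutation p = 0.00058, adjusted p = 0.0014), rho was 0.62 (adjusted p = 0.0045) and r without the 2 farthest libraries was 0.52. Within groups it was 0.76 in air, 0.79 at 0.4 ppm and 0.44 at 0.8 ppm. For the number of tRNA reads r was -0.63 (permutation p = 0.0012, adjusted p = 0.0021), rho was -0.58 (adjusted p = 0.0077) and r without the 2 farthest libraries was -0.51. Within groups it was -0.48 in air, -0.55 at 0.4 ppm and -0.87 at 0.8 ppm. The share of the miR-200 family gave r of 0.30 (adjusted p = 0.21) and the erythroid share r of -0.12 (adjusted p = 0.59), both by permutation. These p-values also leave out the choice of the pair. These measures come from the same libraries, and the part of each in the ratio was not tested.

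**Figure D5:**
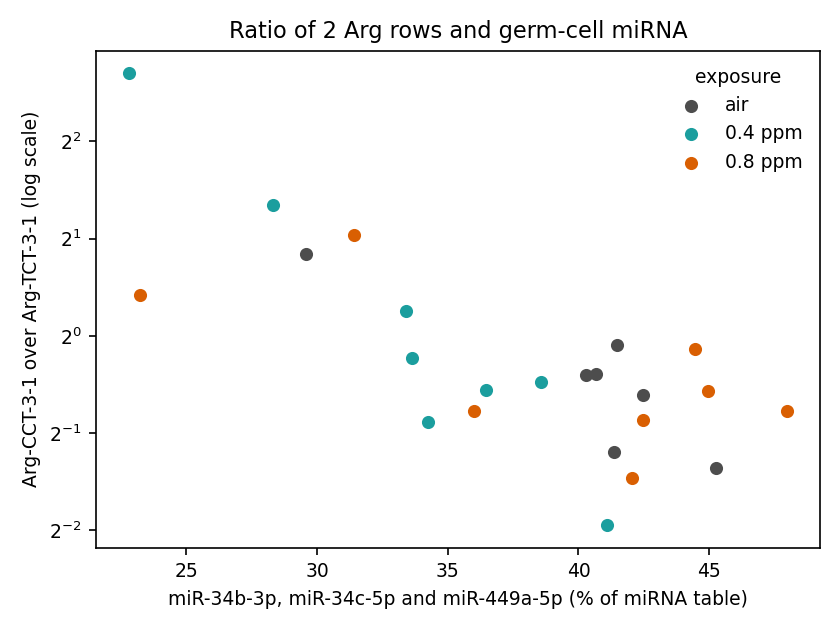
Ratio of Arg-CCT-3-1 to Arg-TCT-3-1 (log scale) against the share of the miRNA table held by miR-34b-3p, miR-34c-5p and miR-449a-5p, with 1 point per rat coloured by exposure. The ratio is lower in rats with a higher share (r = -0.76 for the log2 ratio, 23 rats), from 6.49 at a share of 22.8% to 0.259 at 41.1%.

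Other genes of arginine tRNA handling could not be set beside these reads. Of 36 genes for charging, modifying, cutting and trimming tRNA, such as Rars1, which joins arginine to its tRNA, and Ang, a ribonuclease that cuts tRNA at the anticodon, 0 were present among the 617 rows of the deposited Ensembl transcript table. The RefSeq annotation of the GRCr8 assembly, another build than that of the reads, names 30 arginine tRNA genes by the same anticodons, against 24 rows here. The numbers were equal for CCG, CCT and TCG, and RefSeq names 7 ACG genes against 3 rows and 8 TCT genes against 6 rows.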

How the data were processed

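Small RNA libraries were made with the CleanTag kit from RNA isolated with the mirVana procedure and read single-end at 75 cycles on a NextSeq instrument, per the labels' protocols, which give RNA integrity numbers for all samples together. Partek software, the aligner Bowtie (1.0.0) and the rat genome build rn6 are listed in the submitters' processing notes; the rule for counting reads per tRNA gene is not stated in those sources. The values deposited by the authors are a scaled read signal: in the tRNA table the median ratio to the geometric mean was 1.01136 in every library, as a median-ratio scaling on its rows gives. Of the tRNA values up to 5000 reads, 252 to 265 per library, 100% came within 0.1 read of a whole number once divided by the library's step. Reads so obtained served for depth and counting error; few low values exist to test the step, and no count test was run. The design had foreseen a count test if the values were whole reads. That planned test was left out although the step gave whole numbers.

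From the deposited values, log2(value + 1) was modelled with limma (3.58.1, under R 4.3.3), its trend and robust options on, in all 23 libraries and 3 groups, for the 273 rows above 0 in at least 8 libraries and for 55 anticodon sums. Adjustment was Benjamini-Hochberg within a contrast, two-sided. Log2 differences on this scale understate changes of low rows. Correlations used 100000 permutations. The rats are separate animals. Libraries with identical values numbered 0, and the files have a column for each library. No sequencing batch is labelled. The library names end in S-numbers that repeat between libraries, and no label says which pool or run they stand for. No fit or relation took them into account, so an effect of sequencing batch was not tested. Alternatives were pseudocounts of 0.5 and 5, a minimum mean of 20, no filter, scaling to the table total, quantile normalization, library weights, fits to 2 groups, rows summed by gene family, exact permutation tests, leaving out each library and, added after the data were seen, a germ-cell miRNA covariate. Rows named are the highest of each anticodon, the 3 smallest p-values of each ozone dose, rows called under any alternative, the most alike rows and rows with a library far from its group. The members and lists were chosen with earlier results of these data known. No sequences of these tRNA genes were used here.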

Additional observations from a re-analysis of the deposited data

Results flagged for a closer look

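Of 90 groups of values tested, 4 had a library far from the rest of its group by Dixon's criterion. Chance alone gives such a library in about 1 in 20 groups, so the flags were about as many as chance gives. Arg-TCT-1-1 was 232.4 in replicate 8 at 0.4 ppm, where the next rat had 125.8. Arg-TCT-4-1 was 299.4 in the same rat, where the next had 169.2. This is the rat with the highest Arg-TCT-3-1 and the lowest ratio of Arg-CCT-3-1 to Arg-TCT-3-1. Arg-TCT-5-1, one of the rows with the fewest reads, was 35.9 in replicate 3 at 0.4 ppm, with 19.7 in the next rat, and 29.0 in replicate 5 at 0.8 ppm, with 17.4 in the next.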

How the results depend on the processing

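No paired analysis was possible because the labels give no replicate numbers that the groups share. Call counts of 0 kept that value in every alternative except library weights, which called 22 rows at 0.8 ppm against air and 9 for the trend, Arg-CCT-4-1 among them (-0.57 at 0.8 ppm, limma adjusted p = 0.0394, range over the alternatives 0.0394 to 0.999). With each library left out in turn the counts ran from 0 to 0.

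Signs turned as follows, and the cause was not tested. At 0.8 ppm against air, scaling to the table total gave 0.14 for ACG, 0.14 for CCG, 0.20 for CCT, 0.0888 for TCG and 0.22 for TCT, and 0.12 for Arg-ACG-3-2, 0.24 for Arg-CCG-3-1, 0.0822 for Arg-TCG-1-1, 0.27 for Arg-TCT-3-1 and 0.0421 for Arg-TCG-2-1. Shares of the table at 0.8 ppm were higher than in air by 0.00802 percentage points for ACG, 0.0304 for CCG, 0.0312 for CCT, 0.0141 for TCG and 0.0412 for TCT. Quantile normalization gave 0.0207 for CCT and 0.15 for Arg-TCT-3-1 at 0.8 ppm. Library weights gave -0.0877 for CCT and -0.00633 for Arg-CCT-3-1 at 0.4 ppm, and -0.10 for Arg-CCT-3-1 and 0.0578 for Arg-TCT-3-1 at 0.8 ppm. The germ-cell covariate gave -0.13 for CCT, 0.0411 for TCT, -0.17 for Arg-CCT-3-1 and 0.15 for Arg-TCT-3-1 at 0.4 ppm, and -0.0310 for Arg-CCT-3-1 and 0.0321 for Arg-TCT-3-1 at 0.8 ppm.

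Leaving out single libraries gave -0.0431 to 0.119 for CCT at 0.4 ppm and -0.152 to 0.00652 for TCT at 0.8 ppm. For sums whose sign held, it gave -0.29 (without replicate 6 of air) to -0.00048 (without replicate 7 at 0.8 ppm) for ACG at 0.8 ppm, -0.47 (without replicate 8 at 0.4 ppm) to -0.15 (without replicate 5 at 0.4 ppm) for TCT at 0.4 ppm and -0.19 (without replicate 5 at 0.8 ppm) to -0.0337 (without replicate 6 at 0.8 ppm) for CCT at 0.8 ppm. For CCG, leaving out replicates 6 and 2 of air in turn gave -0.27 and -0.11 at 0.4 ppm and -0.24 and -0.0818 at 0.8 ppm. Among named rows, leaving out single libraries gave -0.118 to 0.0229 for Arg-CCG-3-1 at 0.4 ppm and -0.123 to 0.0177 at 0.8 ppm, -0.0688 to 0.167 for Arg-CCT-3-1 at 0.8 ppm and -0.116 to 0.0663 for Arg-TCT-3-1 at 0.8 ppm. Arg-ACG-2-1 had no value under the minimum mean of 20. Rows of under 20 reads per library, such as Arg-TCT-2-1 with a median of 13, carry a counting error of up to 34.8%, which limits what they can show.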
